A study of Macaca nemestrina with 58 samples.

Results

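Keratins are the intermediate filament proteins of epithelial cells, and the results describe the keratin genes read on an expression array from the vaginal tissue of pig-tailed macaques (Macaca nemestrina). A gene was taken as a member where a probe set carried its symbol alone and that symbol was KRT followed by a number and an optional letter. This gave 35 keratin genes on 50 probe sets, of 14133 named genes on the array. Each gene was read from its probe set with the highest mean, and its other probe sets served as a check. A filter on low values, at a mean log2 value of 5.53, kept 18 of the 35 genes and 27 of the 50 probe sets. All values are log2 expression, so a difference of 1 is a 2-fold change, and levels of different probe sets were not set against each other.

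The study took pinch biopsies from 15 animals before and after hormonal contraception, on an array designed for the rhesus macaque. DMPA, an injectable progestin (depot medroxyprogesterone acetate), was given to 9 animals, 3 at each of the labelled doses 0.5, 1.5 and 2.5, which carry no unit. These were sampled at the times labelled 1D4 (n = 8, since animal BB108 had no sample) and 2D2 (n = 9). The other 6 animals had the treatment labelled LNG, which the study's text calls a combined oral contraceptive (COC), 3 at the dose labelled High and 3 at Low, and were sampled at the times labelled 5th and 7th (n = 6 each). The study's text places DMPA sampling 2 weeks past the second injection and COC sampling 5 weeks past the first dose, and does not say what the labelled times stand for. A mark, A-, stands without explanation on 5 of 12 LNG arrays. Untreated baseline biopsies, 17 in the DMPA arm and 11 in the LNG arm, comprised follicular samples (10 early and 5 late) and luteal samples (4 early and 9 late). For 1 of the late follicular samples the mean of 2 arrays was used. No animals were followed without a drug, so the drug, the time that passed and the repeated biopsy cannot be told apart. Ages are not given in the labels.

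Keratin filaments form from type I and type II partners, and the pair in use changes with the kind and stage of the cell. In a stratified epithelium such as that of the vagina, dividing basal cells carry KRT5 and KRT14, and cells that leave the basal layer switch to KRT4 and KRT13 in a soft mucosa or to KRT1 and KRT10 where the surface cornifies. KRT6 and KRT16 are induced in activated keratinocytes, while the simple epithelia of glands and ducts carry KRT8, KRT18, KRT7 and KRT19. The vaginal epithelium thickens and cornifies under estrogen and thins under a progestin alone.

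The coverage of these groups was uneven. None of the 3 basal keratins (KRT5, KRT14 and KRT15) had a probe set of its own symbol, so basal keratins were not analysed here. Of the mucosal suprabasal keratins all 9 on the list were members and 5 were kept (KRT3, KRT4, KRT13, KRT78 and KRT80). Of the cornifying suprabasal keratins 4 of 5 were members and 3 were kept (KRT1, KRT9 and KRT10). KRT16 was the only member of the 5 activation keratins. Of the simple keratins all 6 were members and 5 were kept (KRT7, KRT8, KRT18, KRT19 and KRT23). Hair and root sheath keratins gave 14 members of 25, with KRT35, KRT36, KRT74 and KRT75 kept. The remaining member, KRT222, was under the filter.

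At DMPA 2D2, 8 of the 18 kept keratins were lower than at baseline and 3 were higher (limma with the animal as a block, Benjamini-Hochberg adjusted p under 0.05). The lower genes were KRT1, KRT78, KRT80, KRT16, KRT10, KRT9, KRT4 and KRT74, and the higher ones were the simple keratins KRT19, KRT18 and KRT8. Among all 11199 genes tested, 14.1% were lower and 17.2% were higher at this time. The median log2 change was -0.57 over the keratins and 0.05 over all genes. The keratins were chosen for study with earlier results of these data known. By group, the brightest probe sets fell for 3 of 5 mucosal suprabasal, 3 of 3 cornifying and 1 of 1 activation keratins. They rose for 3 of 5 simple keratins and fell for 1 of 4 hair and root sheath keratins. A dimmer KRT10 probe set changed the other way. Which transcript the probe sets of KRT9, KRT10 and KRT16 read in this species is uncertain. All 11 calls were lost when the gap between the 3′ and the 5′ control probe set of GAPDH, a readout of RNA integrity, was added to the model, as were those of every other probe set on the array. The fitted changes then moved by different amounts: KRT78 was at -1.78 ± 0.66 (SE), KRT1 at -2.49 ± 1.02, KRT80 at -0.98 ± 0.40 and KRT16 at -0.62 ± 0.41, while KRT19 was at 1.03 ± 0.53, KRT18 at 0.41 ± 0.35 and KRT8, larger than without the covariate, at 0.55 ± 0.18 (limma adjusted p from 0.374 to 0.766). Compared with baseline, 8 of 9 animals had a wider gap (median change 0.61, from -0.05 to 1.92), and its part in the result was not tested.

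**Figure D1:**
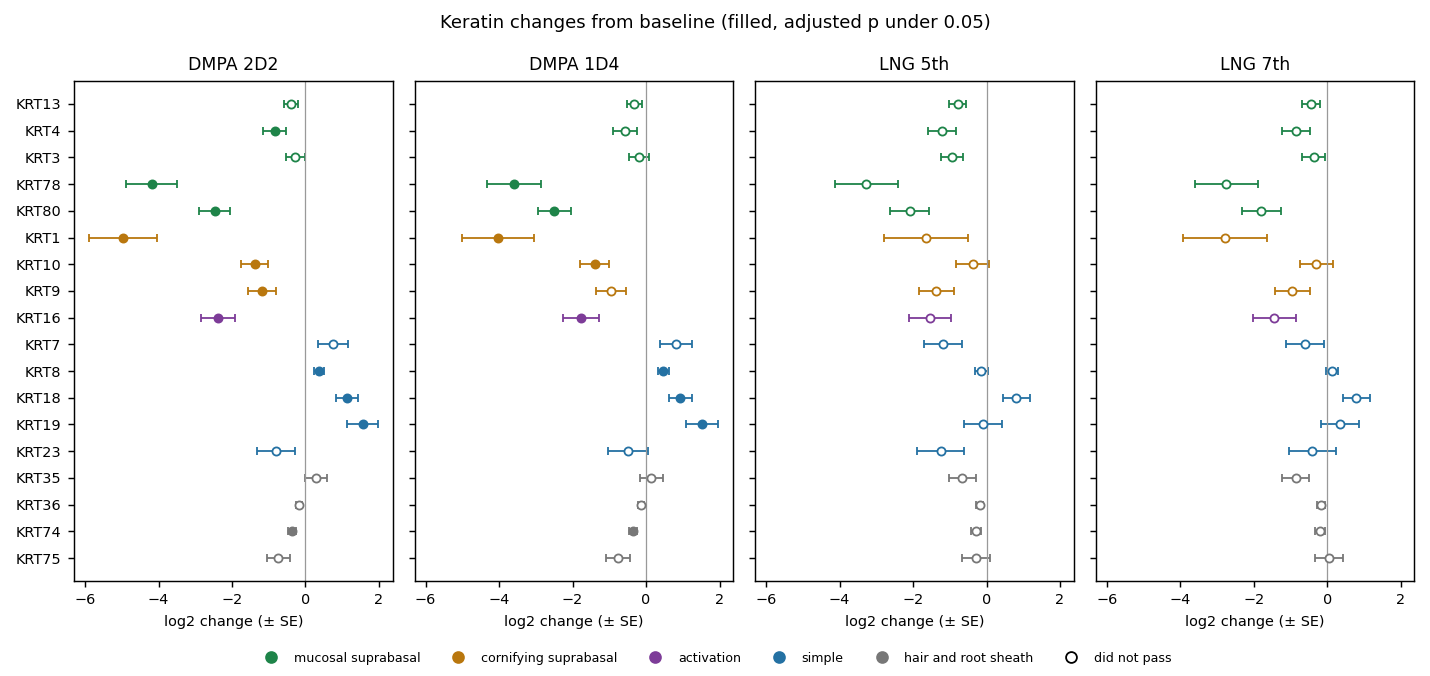
Log2 change (horizontal axis, ± SE) of the 18 kept keratin genes at DMPA 2D2, DMPA 1D4, LNG 5th and LNG 7th against baseline, coloured by keratin group, with filled points past an adjusted p of 0.05. KRT1, KRT78, KRT80 and KRT16 lie left of 0 in all 4 panels, whereas KRT19 is filled to the right of 0 at both DMPA times and open near 0 at both LNG times.

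KRT78, a keratin of differentiating stratified epithelium, lay between 8.12 and 12.7 in the 17 baseline samples of the DMPA arm, with a median of 11.9. At 2D2 the 9 samples ran from 5.59 to 11.6, with a median of 6.36. Of these, 7 were below every baseline sample of the arm, and 2 overlapped them. KRT78 fell by 4.19 ± 0.70 on the log2 scale (SE), an 18.3-fold decrease (limma adjusted p = 1.57e-04), and it was lower in 8 of 9 animals.

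KRT80, a type II keratin of the same differentiating layers, had a baseline range of 4.33 to 8.82 with a median of 7.83. At 2D2 the range was 3.60 to 7.17 and the median 4.70, and 4 of 9 samples were below the whole baseline range. Its fall was 2.47 ± 0.43 (SE), or 5.56-fold (adjusted p = 1.97e-04), again in 8 of 9 animals. Across the 57 samples KRT78 and KRT80 followed each other most closely of the brightest probe sets (Pearson r = 0.953, a description over samples that share animals).

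KRT4 and KRT13, the type II and type I partners of the soft mucosa, both had baseline medians near the top of the scale. KRT4 was between 11.8 and 14.0 at baseline (median 13.7) and between 11.5 and 13.8 at 2D2 (median 12.7), and only 1 treated sample was below the baseline range. KRT4 fell by 0.84 ± 0.31 (SE), or 1.79-fold (adjusted p = 0.0406), a call that was lost on leaving out any of 7 animals, with adjusted p from 0.0564 to 0.138 in those fits. KRT13 ran from 13.3 to 14.1 at baseline (median 14.0) and from 13.2 to 14.1 at 2D2 (median 13.5). Its change of -0.40 ± 0.20 (SE) did not pass (adjusted p = 0.123), although 7 of 9 animals were lower. The highest value of any probe set in the data was 14.57, so KRT13 sat near the top of the scale in every group, and KRT4 did at baseline. Whether the array compressed their changes was not tested. For the same reason no change of another keratin is set against that of KRT13, and the comparison planned against KRT5 was not run for want of a KRT5 probe set. KRT4 and KRT13 changed together over the animals (r = 0.755, exact p = 0.0188, adjusted 0.0283; rho = 0.817, p = 0.0108, adjusted 0.0162), but r was 0.737 (exact p = 0.0583) without BB405 and BB770, and the relation also missed the threshold without BB770, BB981 or PPi2 alone.

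KRT3, known from the cornea, gave different answers by probe set. Its brightest probe set changed by -0.28 ± 0.25 (SE, adjusted p = 0.424) and followed KRT13 across the samples (r = 0.946). This probe set too was near the top of the scale at baseline (median 13.7), and whether its changes were compressed was not tested. The second was between 7.90 and 13.8 at baseline (median 13.1) and between 3.85 and 12.6 at 2D2 (median 6.91). It fell by 4.82 ± 0.92, or 28.3-fold (adjusted p = 4.56e-04), in 9 of 9 animals, and its closest keratin was KRT16 (r = 0.953). The third fell by 0.70 ± 0.15 (adjusted p = 8.47e-04). Keratin genes share sequence, so which transcript each probe set reads in this species is uncertain.

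**Figure D2:**
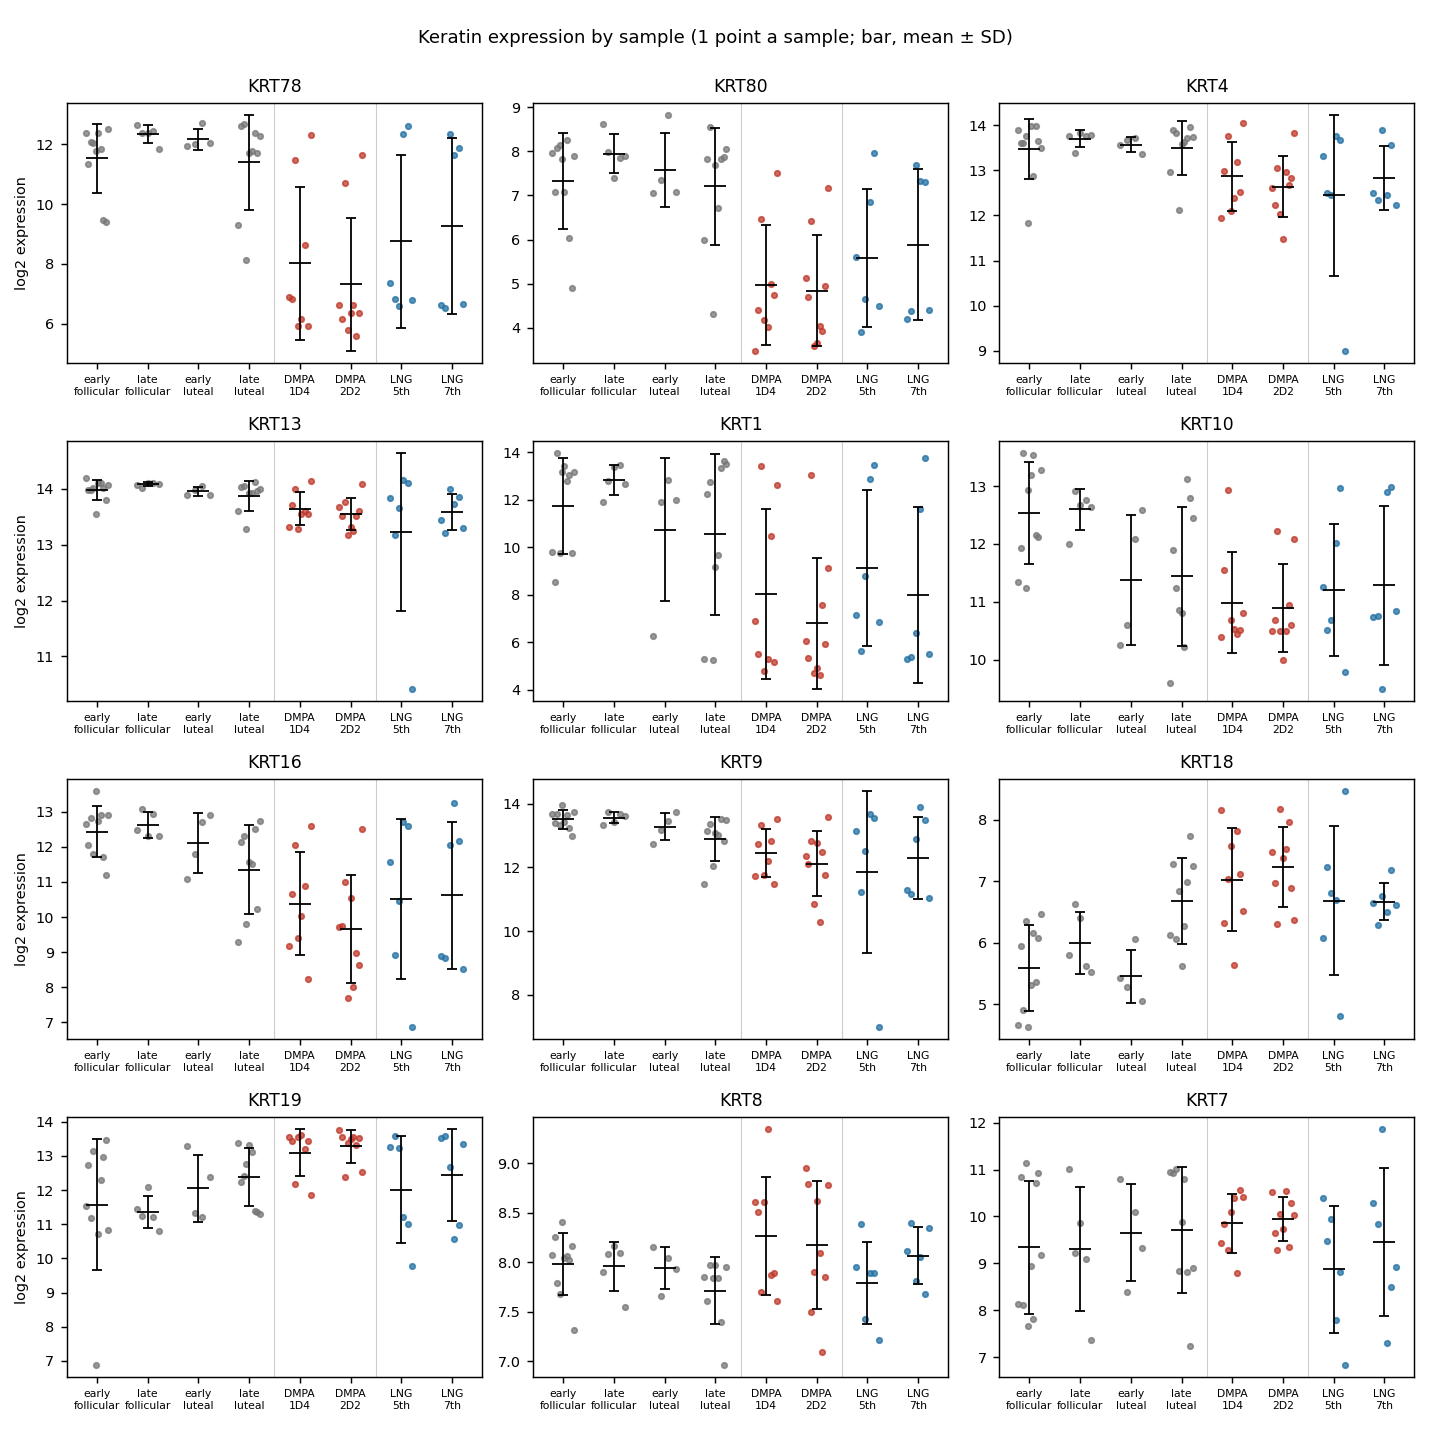
Log2 expression (vertical axis) of 12 keratins in each sample (points) of the 4 baseline phases (grey), DMPA 1D4 and 2D2 (red) and LNG 5th and 7th (blue), with bars for the mean ± SD. KRT78 was above 8 in every baseline sample and below 7 in 7 of 9 samples at DMPA 2D2, while KRT13 stayed between 13.2 and 14.2 in all samples but 1.

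KRT1, the type II keratin of cornifying layers, varied over a wide range even before treatment, from 5.24 to 13.6 in the DMPA arm with a median of 12.8. At 2D2 it ran from 4.62 to 13.0 with a median of 5.90, and 3 of 9 samples were below all baseline samples. The fall of 4.98 ± 0.93 (SE) was the largest of the 18 keratins, 31.5-fold (adjusted p = 3.66e-04). It was seen in 8 of 9 animals; in PPi2, given the dose 0.5, the 2D2 value was 13.0 against baseline values of 13.4 (early follicular) and 5.24 (late luteal).

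KRT10, the type I partner of KRT1, ran from 10.2 to 13.5 at baseline (median 12.6) and from 10.002 to 12.2 at 2D2 (median 10.6), with 1 sample below the baseline range. It fell by 1.38 ± 0.37 (SE), or 2.61-fold (adjusted p = 0.00611). A dimmer probe set of KRT10 changed the other way, by 0.31 ± 0.10 (adjusted p = 0.0181), and its values had no likeness to those of the brighter one (r = -0.08). The changes of KRT1 and KRT10 went together over the 9 animals (Pearson r = 0.840, exact permutation p = 0.00112, adjusted 0.00335 over 3 pairs; Spearman rho = 0.817, p = 0.0108, adjusted 0.0162). Without PPi2 and BB521, the animals farthest from the median of KRT1, r was 0.755 (exact p = 0.0522), and without PPi2 alone it was 0.784 with an adjusted p of 0.0763, so the relation passed only with PPi2 included.

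KRT9, best known from palms and soles, was between 12.04 and 13.95 at baseline (median 13.5) and between 10.3 and 13.6 at 2D2 (median 12.3). It fell by 1.19 ± 0.39 (SE), or 2.28-fold (adjusted p = 0.0203), a call lost without BB0499, BB108 or BB981 (adjusted p from 0.0573 to 0.0746). A second KRT9 probe set was under the filter, with no value above 6.86 in any sample, so the bright signal rests on 1 probe set. Across the 57 samples the bright probe set was closest to those of KRT16 (r = 0.908) and KRT13 (r = 0.902).

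KRT2 of the uppermost epidermis and KRT76 of the hard palate and gums were under the filter on their means, but not in every sample. KRT2 reached 11.8 in the baseline of the DMPA arm (lowest 3.37, median 4.81), whereas its 9 values at 2D2 lay between 3.26 and 3.88. KRT76 ran from 3.54 to 9.28 at baseline (median 5.45) and from 3.51 to 6.82 at 2D2 (median 3.83). Neither was tested. By baseline phase the median of KRT2 was 7.31 and 5.93 in the early and late follicular samples, against 3.92 and 3.99 in the early and late luteal ones.

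KRT16, the inducible keratin of activated keratinocytes, was between 9.81 and 13.6 at baseline (median 12.5) and between 7.69 and 12.5 at 2D2 (median 9.73). It was lower in 9 of 9 animals, and 6 of 9 samples were below the baseline range. It fell by 2.38 ± 0.47 (SE), or 5.19-fold (adjusted p = 5.73e-04). Of its 3 other kept probe sets, 2 fell by 3.94 and 2.96, whereas the dimmest of the 4 changed by 0.25 and did not pass.

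Of the 5 simple keratins KRT19, KRT18 and KRT8 rose, and KRT7 and KRT23 did not pass. KRT19, a small keratin of ducts, glands and some basal cells, was between 6.89 and 13.5 at baseline (median 11.4) and between 12.4 and 13.7 at 2D2 (median 13.5). All 9 animals had risen from their baseline mean, and 5 of 9 samples were above every baseline sample. The rise was 1.56 ± 0.42 (SE), or 2.95-fold (adjusted p = 0.00632), and the 2 other KRT19 probe sets rose by 1.67 and 1.56.

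KRT18, the type I keratin of simple epithelia, ran from 4.64 to 7.74 at baseline (median 6.08) and from 6.31 to 8.17 at 2D2 (median 7.38), and 2 samples were above the baseline range. It rose by 1.12 ± 0.30 (SE), or 2.18-fold (adjusted p = 0.00669), in 7 of 9 animals. Its partner KRT8 ran from 6.96 to 8.41 at baseline (median 7.95) and from 7.10 to 8.95 at 2D2 (median 8.09), and 4 samples were above the baseline range. KRT8 rose by 0.37 ± 0.14, or 1.29-fold (adjusted p = 0.0492), in 6 of 9 animals; the call was lost without BB405, BB521, BB770, BB981 or PHQ1 (adjusted p from 0.0765 to 0.220). It was also lost with arrays centred on their medians (0.0560), with quantile normalization (0.0947), with the animal as a random block (0.0704), with no block (0.170) and with no filter (0.0669), at changes between 0.31 and 0.37. The changes of KRT8 and KRT18 showed no relation over the animals (r = -0.135, exact p = 0.727, adjusted 0.727; rho = -0.133, p = 0.744, adjusted 0.744; without PPi2 and BB0540 r = -0.401, exact p = 0.372).

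KRT7 of glandular and transitional epithelia did not pass, at 0.74 ± 0.41 (SE, adjusted p = 0.173). Its baseline range of 7.24 to 11.1 (median 9.09) narrowed to 9.29 to 10.5 (median 10.04) at 2D2, inside the baseline range. KRT23, a type I keratin of simple epithelia, was between 7.62 and 11.7 at baseline (median 10.5) and between 7.71 and 10.97 at 2D2 (median 9.63), and its change of -0.81 ± 0.52 did not pass (adjusted p = 0.242).

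Of the hair and root sheath keratins, KRT74 fell by 0.38 ± 0.11 (SE), or 1.30-fold (adjusted p = 0.00817), from a baseline range of 6.52 to 7.86 (median 6.96) to 6.34 to 7.07 (median 6.54), lower in 8 of 9 animals. KRT35 (0.29), KRT36 (-0.18) and KRT75 (-0.74) did not pass. The 17 keratin genes under the filter were 10 of this group, KRT222, and KRT2, KRT12, KRT20, KRT24, KRT76 and KRT79. Apart from KRT2 and KRT76, the highest value of these genes in any sample was 6.75, for KRT84.

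**Figure D3:**
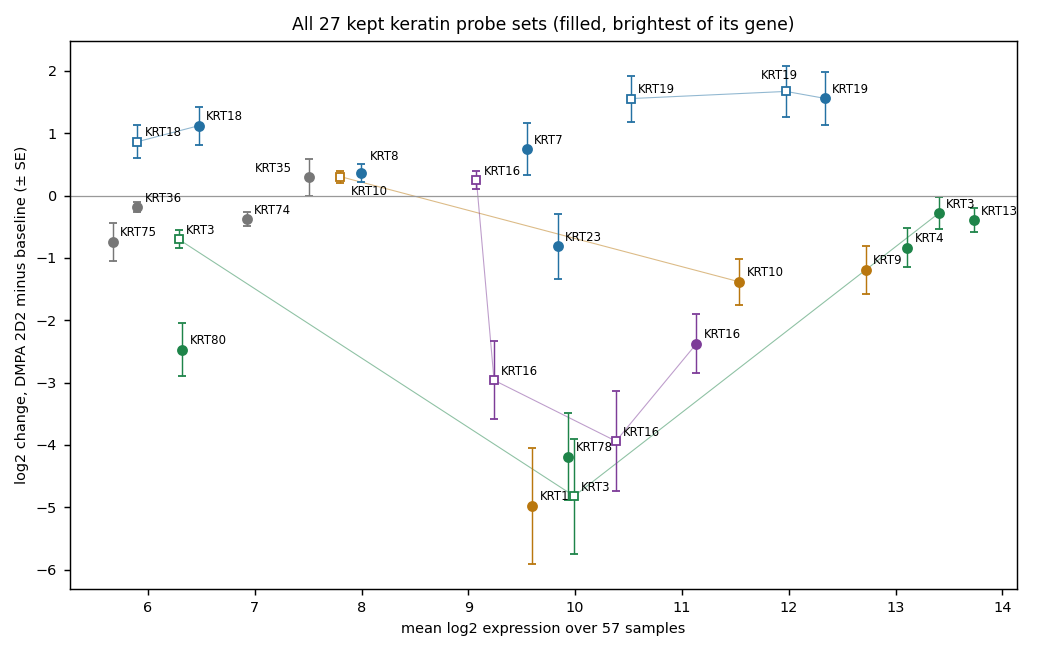
Log2 change at DMPA 2D2 (vertical axis, ± SE) of the 27 kept keratin probe sets against their mean log2 expression over 57 samples (horizontal axis), with lines joining probe sets of a gene and filled circles for the brightest. The probe sets of KRT19 and of KRT18 lie together, whereas those of KRT3, KRT10 and KRT16 spread over different changes.

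Partner genes of the keratins were read from a list of 26, of which 17 had a kept probe set. The list holds linkers, matrix proteins and keratin regulators, and also genes named for keratinocytes (KRTDAP, KRTCAP2 and KRTCAP3). This list was chosen with earlier results of these data known. At 2D2, 10 fell and 2 rose, with a median change of -0.60, against 14.1% of all genes lower and 17.2% higher. Those that rose were KRTCAP3 by 0.65 and PLEC by 0.25. TGM3 and TGM1, transglutaminases of the cornified envelope, fell by 3.65 ± 0.60 (SE, adjusted p = 1.57e-04) and 3.95 ± 0.69 (adjusted p = 2.11e-04). KRTDAP, a secreted product of differentiating keratinocytes, fell by 4.98 ± 0.99 (adjusted p = 6.08e-04). DNAJB6, a chaperone of keratin filaments, fell by 0.60 ± 0.13 (adjusted p = 9.77e-04), EVPL (envoplakin) by 1.33 ± 0.30 (adjusted p = 0.00170) and PKP1, a plakophilin of desmosomes, by 1.94 ± 0.46 (adjusted p = 0.00283). DSP, the desmoplakin that anchors keratin to desmosomes, changed by -0.51 and did not pass.

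Markers of the cells a biopsy can hold moved beside the keratins. The marker lists were chosen with earlier results of these data known. All 7 upper squamous markers fell at 2D2 (median change -4.45), and all 5 cell division markers fell (median -1.20). Over all genes, 14.1% were lower and 17.2% higher at this time. Of 4 basal keratinocyte markers, ITGB4 rose by 0.45 and ITGA6 by 0.25, while TP63 changed by -0.19 and did not pass. Of 9 columnar epithelium markers 5 rose, namely PIGR by 2.00, WFDC2 by 1.88, EPCAM by 1.41, FOXJ1 by 0.74 and CLDN3 by 0.29. TFF3 fell by 0.39 and CDHR3 by 0.38, AGR2 (0.38) and PAX8 (-0.15) did not pass, and the median of the 9 was 0.38. Their mean went up in 8 of 9 animals at 2D2 (change from -0.02 to 1.19). BB981, with the largest rise of this mean, also had the largest KRT19 rise (4.52). BB0499, at -0.02, had the largest KRT18 rise (2.29), and BB521, at 1.15, had KRT18 at -0.86. The relation of this mean to the simple keratins over the animals was not tested. Of 5 urothelium markers UPK1A rose by 1.44 and UPK3A by 0.60, whereas UPK1B (0.12), UPK2 (-0.30) and UPK3B (-0.13) did not pass, and the median was 0.12. None of the 5 fibroblast or 4 smooth muscle markers passed, and the stroma score, their mean, changed by between -2.37 and 4.04 per animal. In whole biopsies fewer cells of a type and less RNA per cell cannot be told apart. The part of these markers in the keratin changes was not tested. With the stroma score in the model 11 keratins were called, and 9549 of 31624 probe sets were, against 8874 without it. The score holds none of the squamous, columnar or urothelium markers.

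The 9 animals did not change alike. At the labelled dose 0.5, KRT78 changed by 0.44 in PPi2, -0.72 in BB770 and -3.96 in BB108. At 1.5 it changed by -4.41 in BB405, -5.35 in BB521 and -6.08 in BB981, and at 2.5 by -5.33 in PHQ1, -6.02 in BB0499 and -6.85 in BB0540. KRT80 changed by 0.72, -0.78 and -1.78 in the same 3 animals at 0.5, and by -2.88 to -4.38 in the other 6. KRT13 changed by 0.08, 0.03 and -0.62 at 0.5, and by -0.28 to -0.84 in the other 6. For KRT78 and KRT80 the values at 0.5 thus lay above all values at the higher doses, whereas for KRT13 BB108 lay among them. KRT19 had no such order, with 0.64, 1.27 and 0.27 at 0.5, 4.52, 0.83 and 2.17 at 1.5, and 1.78, 0.56 and 2.20 at 2.5. With 3 animals a dose these are descriptions. The baseline of PPi2 is the mean of an early follicular and a late luteal sample. Leaving PPi2 out moved the late luteal minus early follicular difference of KRT78 from -0.58 to 0.04.

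**Figure D4:**
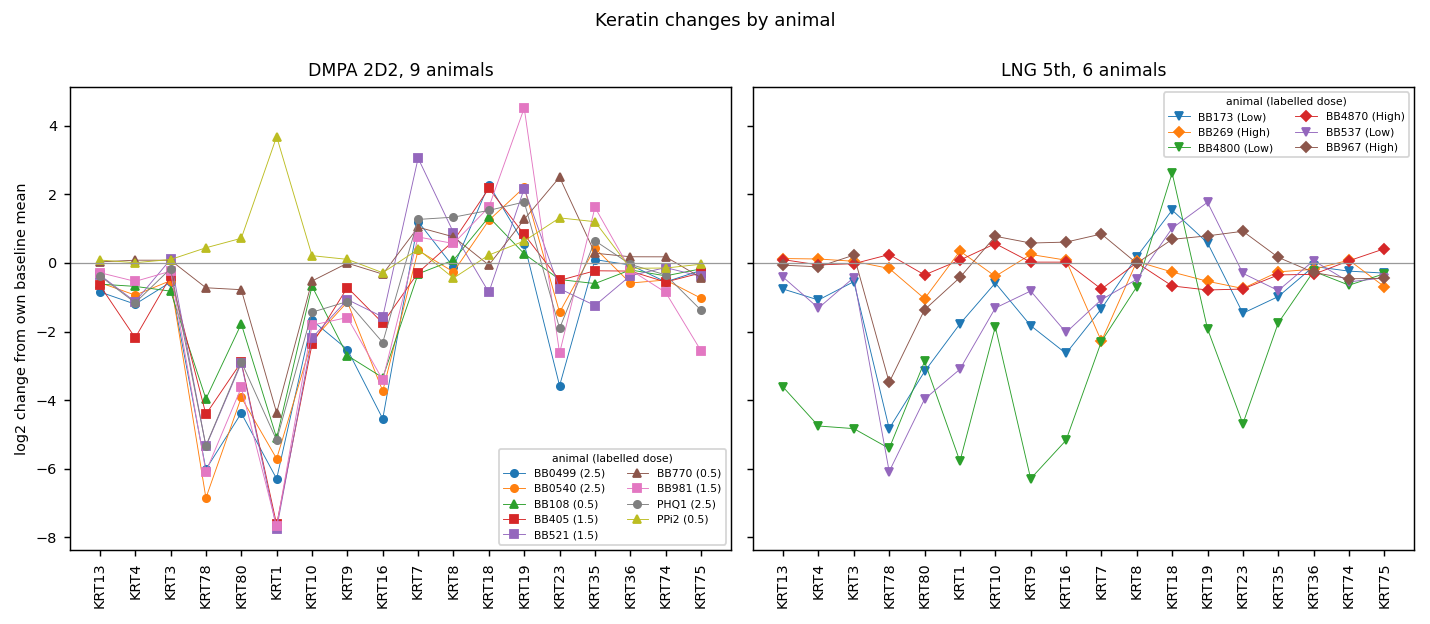
Log2 change of each of the 18 kept keratins from the animal's own baseline mean (vertical axis) in the 9 animals at DMPA 2D2 and the 6 at LNG 5th, with thin lines joining the values of an animal and symbols for the labelled dose. At DMPA 2D2, PPi2 alone is above 0 for KRT1, at 3.68, and at LNG 5th BB4800 lies lowest for KRT13, KRT4, KRT3, KRT1, KRT9 and KRT16.

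At the earlier DMPA time, 1D4, 6 of 18 keratins were lower and 3 higher, against 14.1% of all genes lower and 11.7% higher. KRT1 fell by 4.02 ± 0.98 (SE, adjusted p = 0.00647), KRT78 by 3.59 ± 0.73 (adjusted p = 0.00335), KRT80 by 2.50 ± 0.45 (adjusted p = 0.00208), KRT16 by 1.77 ± 0.49 and KRT74 by 0.36 ± 0.11. KRT10 fell by 1.403 ± 0.391 (adjusted p = 0.0123), whereas its dimmer probe set had a median of 7.89 at 1D4 and 7.81 in the baseline of the arm. KRT19 rose by 1.53 ± 0.44 (adjusted p = 0.0152) in 8 of 8 animals, KRT18 by 0.94 ± 0.32 and KRT8 by 0.47 ± 0.15. On leaving out each animal in turn 6 to 10 keratins were called. The call of KRT8 was lost without BB0499, BB0540, BB405, BB521 or PHQ1 (0.34 to 0.46, adjusted p from 0.0501 to 0.116), and that of KRT18 without BB0499, BB0540, BB981 or PHQ1 (0.75 to 0.93, adjusted p from 0.0704 to 0.132). KRT74 was lost without BB0499, BB405 or BB981, KRT10 without BB0540 (adjusted p = 0.0517) and KRT16 without PHQ1 (adjusted p = 0.0515), and KRT9 passed without PPi2 (adjusted p = 0.0387). KRT4 (-0.58) and KRT9 (-0.96) did not pass (adjusted p = 0.188 and 0.0789). With the stroma score in the model KRT78, KRT80 and KRT8 were called. KRT1 (-3.80, adjusted p = 0.0565) and KRT19 (1.46, adjusted p = 0.0844) were about as large as before, KRT16 was at -1.35, KRT10 at -1.11 and KRT74 at -0.25, and KRT18 was at 0.34 (adjusted p = 0.411). The score had gone up in 6 of 8 animals (median change 1.86). With the GAPDH gap, wider in 6 of 8 animals, 4 were called.

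Between 2D2 and 1D4 no keratin passed (limma, 0 of 18 at an unadjusted p under 0.05 as well). None of the 11199 genes passed after adjustment (0%), and 619 of them had an unadjusted p under 0.05. The largest difference was -0.95 ± 1.10 (SE) for KRT1.

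In the LNG arm no keratin passed at either time, nor did any of the 11199 named genes (0% at the 5th and 0% at the 7th), although 10 of 18 keratins at the 5th and 7 of 18 at the 7th had an unadjusted limma p under 0.05. Among all genes 2723 at the 5th and 2844 at the 7th were under that value. KRT80 was between 5.997 and 8.62 in the 11 baseline samples of the arm (median 7.82) and between 3.90 and 7.96 at the 5th (median 5.13), and 4 of 6 samples were below the baseline range. Its change of -2.10 ± 0.52 (SE) had an adjusted p of 0.0544. KRT78 was between 9.29 and 12.7 at baseline (median 12.4) and between 6.57 and 12.6 at the 5th (median 7.08), with 4 of 6 samples below the baseline range and a change of -3.27 ± 0.86 (adjusted p = 0.0549). At the 7th the changes were -1.79 ± 0.52 for KRT80 (adjusted p = 0.0634) and -2.74 ± 0.86 for KRT78 (adjusted p = 0.0751).

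These 2 keratins were close to the threshold, and some settings put them past it. Without BB4870, whose 5th array is the only one marked A- at that time, 6 keratins were lower at the 5th (KRT3, KRT4, KRT9, KRT13, KRT78 and KRT80), and without BB269 4 were lower (KRT4, KRT13, KRT78 and KRT80). Calls appeared over the whole array in these fits, at 3186 and 920 of 31624 probe sets, against 0 with all animals. At the 7th 1 keratin, KRT80, was lower without BB269, where 1094 of 31624 probe sets were called, against 2 with all animals. BB4870 and BB269 are both High animals. At the 5th KRT78 changed by -0.16 in BB269, 0.25 in BB4870 and -3.48 in BB967 at High, and by -4.83 in BB173, -6.08 in BB537 and -5.41 in BB4800 at Low. This order by dose did not hold at the 7th. There KRT78 changed by -0.86, -0.50 and -4.22 in the same High animals, and by -5.12, -0.30 and -5.53 in the same Low animals.

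The 5th sample of BB4800 stood apart. Its KRT13 was 10.4, KRT4 8.9997 and KRT9 7.0004, each the lowest of all 57 samples, and its KRT18 was 8.46, the highest. Its smooth muscle marker mean of 12.6 was also the highest of the 57, and its basal keratinocyte mean was 9.61 against 10.95 and 11.1 in its own baseline. Without BB4800 the changes at the 5th were -0.20 in place of -0.79 for KRT13, -0.49 in place of -1.22 for KRT4, -0.35 in place of -1.38 for KRT9, -0.14 in place of -0.94 for KRT3, -0.77 in place of -1.53 for KRT16, -0.77 in place of -1.66 for KRT1 and -0.53 in place of -1.25 for KRT23. KRT18, at 0.81 with all animals, was at 0.44 without it. These values are of the brightest probe set of each gene, and the second probe sets of KRT3 and KRT16 differed. In BB967, BB173, BB537, BB269 and BB4870 the second of KRT3 changed by -2.19, -6.43, -3.83, 0.76 and 0.60. In the same animals the second of KRT16 changed by -1.96, -4.73, -4.94, 0.27 and 0.41. The stroma score had gone up in 5 of 6 animals at the 5th (median change 2.48), and its part was not tested. The GAPDH gap was wider in 5 of 6 animals at the 5th (median change 0.46) and in 6 of 6 at the 7th (median change 0.54). All 7 upper squamous markers had an unadjusted limma p under 0.05 and a negative change at both times (median -2.72 and -3.15), as had 4 of 5 division markers (median of the 5, -1.08 and -1.18). None of these markers passed after adjustment, and their part in the keratin changes was not tested. Over all 11199 genes, 2723 at the 5th and 2844 at the 7th had an unadjusted limma p under 0.05.

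Among the other keratins of the LNG arm at the 5th, KRT7 changed by -1.19 ± 0.51 (SE, adjusted p = 0.163), KRT19 by -0.09 ± 0.52, KRT8 by -0.14 ± 0.18 and KRT10 by -0.38 ± 0.46. At the 7th KRT1 changed by -2.79 ± 1.15 (adjusted p = 0.136), KRT16 by -1.43 ± 0.58, KRT35 by -0.86 ± 0.37 and KRT18 by 0.80 ± 0.38. None passed.

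The 2 arms share no animals, so their changes were compared between separate sets of animals. The drug, its route, the time of sampling and the animals cannot be told apart in this comparison. No difference in keratin change between DMPA 2D2 and LNG 5th passed after adjustment (0 of 18), nor did that of any other gene (0%). At an unadjusted limma p under 0.05 there were 4 of 18 keratins, against 1032 of all 11199 genes. The 4 were KRT7, with a difference of DMPA minus LNG of 1.94 ± 0.66 (SE, adjusted p = 0.513), KRT19 (1.65 ± 0.67), KRT8 (0.51 ± 0.23) and KRT1 (-3.32 ± 1.47). For KRT78 the difference was -0.92 ± 1.10 and for KRT80 it was -0.38 ± 0.67. No keratin passed between the LNG times (0 of 18, and 0% of all genes). At an unadjusted limma p under 0.05 there were 0 keratins, against 315 of all 11199 genes.

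Across the untreated cycle 2 keratins differed between the luteal and the follicular phases, against 2.33% of all genes higher and 0.982% lower. KRT35, a hair keratin, was higher in the luteal phases and KRT10 was lower. KRT10 was between 11.2 and 13.6 in the 10 early follicular samples (median 12.5) and was 11.997, 12.9, 12.7, 12.8 and 12.6 in the late follicular ones. It was 10.3, 10.6, 12.1 and 12.6 in the early luteal samples and between 9.59 and 13.1 in the 9 late luteal ones (median 11.2). The groups overlapped. KRT10 was lower by 1.35 ± 0.33 in the luteal phases (SE), or 2.55-fold (limma adjusted p = 0.0482). Where 6 animals had both a late luteal and an early follicular sample, KRT10 was lower in the late luteal in all 6, by between 0.16 and 2.73 (median 2.12). The dimmer KRT10 probe set did not show this fall. Its medians were 7.82 and 7.58 in the early and late follicular samples, and 7.56 and 7.83 in the early and late luteal ones.

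KRT35 ran from 6.35 to 9.13 early follicular (median 6.88) and was 8.12, 7.92, 6.79, 6.73 and 8.41 late follicular. It was 7.76, 7.77, 7.89 and 7.91 early luteal and ran from 7.15 to 9.41 late luteal (median 7.61). The luteal phases were higher by 1.10 ± 0.16 (SE), or 2.14-fold (adjusted p = 0.0206), and all 6 animals with both phases were higher late luteal than early follicular, by 0.07 to 1.79. The 2 arrays of the same late follicular animal and phase gave 7.06 and 9.18 for KRT35, a gap larger than this difference. Both calls lay near the threshold. Leaving out BB173, BB269, BB4800 or BB981 ended both, and leaving out BB0499, BB108, BB4870, BB770, BB967, PHQ1 or PPi2 ended that of KRT10. Over the fits that leave out each animal the difference was 1.03 to 1.22 for KRT35 and -1.59 to -1.07 for KRT10, and where the call of KRT35 was lost its adjusted p was 0.0512 to 0.0707. Without the animal block neither passed (adjusted p = 0.253 for KRT35 and 0.0926 for KRT10), and with the GAPDH gap as a covariate neither passed and no other gene did, with KRT35 at 1.22 ± 0.20 (SE, adjusted p = 0.269) and KRT10 at -0.97 ± 0.38 (adjusted p = 0.455).

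**Figure D5:**
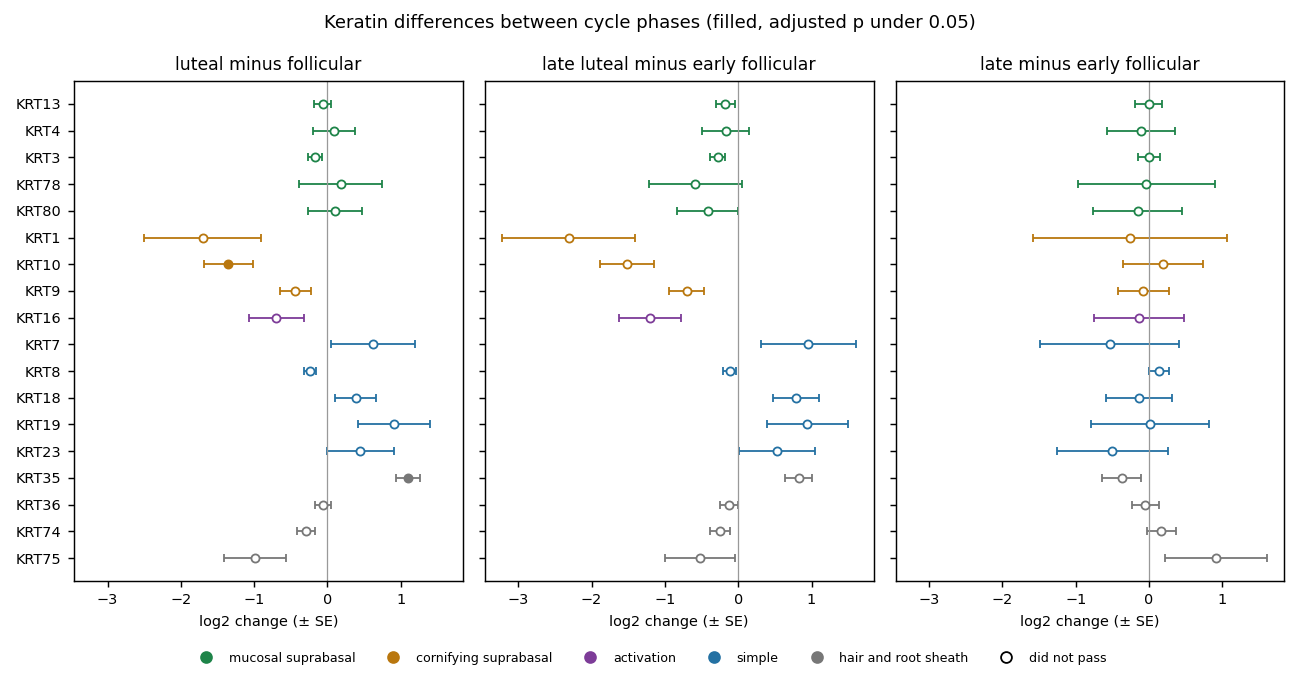
Differences in log2 expression (horizontal axis, ± SE) of the 18 kept keratins between baseline cycle phases, coloured by keratin group, with filled points past an adjusted p of 0.05. KRT35 at 1.10 and KRT10 at -1.35 are the only filled points, both in the panel of luteal minus follicular.

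KRT1 had the largest difference among the other keratins, at -1.70 ± 0.80 (SE, adjusted p = 0.202), with 6.24, 11.9, 12.8 and 11.99 in the early luteal samples and 11.9, 12.8, 13.4, 13.5 and 12.7 in the late follicular ones. KRT8 differed by -0.24 ± 0.08 (adjusted p = 0.102), KRT13 by -0.06 ± 0.11 and KRT4 by 0.09 ± 0.28. Between the late luteal and early follicular phases no keratin passed in limma (0 of 18), against 0.152% of all genes. At an unadjusted limma p under 0.05 there were 7 of 18 keratins, against 2688 of all 11199 genes. The nearest to passing were KRT35 (0.82 ± 0.18, adjusted p = 0.0665) and KRT10 (-1.52 ± 0.37, adjusted p = 0.0758). Both passed without BB405, where 523 of 31624 probe sets passed. Between the late and early follicular phases no keratin passed (0 of 18) and no other gene did (0%). Of the keratins 0 had an unadjusted limma p under 0.05, against 529 of all 11199 genes.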

How the data were processed

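Log2 expression values of 58 arrays were used as deposited by the authors, with affy and Partek named as tools in the submitters' processing notes. The background correction, normalization and summarization are not given in the sources used here. Array medians lay between 6.07 and 6.25. Precision is limited by how many arrays each group has. Of 52865 probe sets, 158 controls and those whose mean lay below the 40th percentile were left out, which kept 31624 and 11199 named genes. A duplicate array was merged with its partner by their mean, giving 57 samples.

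Models were fitted with limma 3.58.1 in R 4.3.3 on all kept probe sets, with the animal as a fixed block because samples of an animal are labelled with its name, and p values were adjusted by Benjamini-Hochberg over all of them. A fit of 5 states used all samples, and a fit of 4 phases used the 28 baseline samples. Early and late luteal phases had equal weight against early and late follicular ones. Errors are standard errors of the fit unless an SD is named. Changes per animal are from the mean of its own baseline samples. Full values are given for the main keratins of each group and for any kept keratin that passed or changed by at least 1, which came to 15 genes. The code was tested on simulated data. The keratins and the lists of markers and partners were chosen with earlier results of these data known.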

Additional observations from a re-analysis of the deposited data

Results flagged for a closer look

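Of 120 groups of values of the 15 keratins with full values, 15 had a lowest or highest sample whose gap to its neighbour was large for the range of the group by Dixon's criterion, where chance gives about 1 in 20. For KRT1 these were the early luteal sample of BB173 at 6.24 (nearest 11.9) and the change of PPi2 at DMPA 2D2, which was 3.68 against -4.37 or less in the other 8 animals. For KRT4 they were the early follicular sample of BB981 at 11.8, the late follicular sample of BB269 at 13.4 and the change of BB4800 at LNG 5th of -4.75. BB4800 stood apart at that time also for KRT9, with a change of -6.29, and for KRT13, with -3.62 (nearest -0.76).

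KRT7 changed most in BB521, by 3.34 at DMPA 1D4 and by 3.06 at 2D2. KRT19 was 6.89 in the early follicular sample of BB981 (nearest 10.7), and the changes of that animal were 4.38 at 1D4 and 4.52 at 2D2. KRT35 was 9.13 in the early follicular sample of PHQ1. In the early luteal sample of BB981, KRT78 was 12.7 and KRT80 was 8.82, above the other 3 samples.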

How the results depend on the processing

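Counts of keratins called are compared with those reported above, of 18 genes. For DMPA 2D2 (11) all settings stayed within 1.5 times, with 8 to 11 called on leaving out each animal, except the GAPDH gap as a covariate, which gave 0 and turned KRT4 to 0.0022. For DMPA 1D4 (9) the count was 3 without the replicate block, 4 with the GAPDH gap, 3 with the stroma score and 6 to 10 on leaving out each animal. Of all 31624 probe sets, 2609 were called without the replicate block, 1631 with the GAPDH gap and 319 with the stroma score, against 7334. For LNG 5th (0) it was 1 with a stricter filter (60th percentile), 2 with the animal as a random block, 2 with array weights, 2 with 1 probe set per gene, 2 without the fourth late luteal sample, 4 with the baseline phases as separate groups, 6 without the arrays marked A- and 0 to 6 on leaving out each animal. For LNG 7th (0) it was 7 with array weights, 2 without that late luteal sample, 2 with separate phases and 0 to 1 on leaving out each animal. Calls appeared over the whole array in these LNG fits. At the 5th they were 748 of 21083 probe sets with the stricter filter and 198 of 11199 with 1 probe set per gene. Of 31624 they were 298 with a random block, 1708 with array weights, 1046 without that sample, 1808 with separate phases and 2937 without A-. At the 7th they were 3572 with array weights, 1145 without that sample and 1950 with separate phases.

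For the luteal against the follicular phases (2), the count was 1 with no filter, 1 with a random block, 0 with no replicate block, 1 with array weights, 0 with the GAPDH gap, 1 with the stroma score, 1 without the fourth late luteal sample and 0 to 2 on leaving out each animal. For the late luteal against the early follicular phase (0) it was 6 with a random block and 0 to 2 on leaving out each animal. The random block called 2174 of 31624 probe sets there, against 48 with the fixed block. Without the fourth late luteal sample (PPi2), r was 0.671 for KRT1 with KRT10 and 0.665 for KRT4 with KRT13 (exact permutation, adjusted p = 0.0785 for both). Leaving out each animal gave r from 0.784 to 0.882 for the first pair and from 0.668 to 0.814 for the second. The cause of these shifts was not tested. The block by animal is a pairing by the labels and changed no other count by over 1.5 times.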
